A study of Aconitum japonicum with 4 samples.

Results

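The transcripts described here are those of *Aconitum japonicum* that were abundant in all 4 tissues sequenced, which were leaf, rootlet, daughter root and mother root, and whose level hardly differed among them. A transcript belonged to the set when its FPKM was at least 50 in each of the 4 libraries and its largest FPKM was at most 1.3 times its smallest. FPKM is the number of sequenced fragments scaled to the length of the transcript and to the depth of the library, so levels of transcripts of different length can be set side by side. Of the 129760 transcripts of the assembly, 1588 reached 50 FPKM in every library, and 83 of these, or 5.23%, were constant by the second condition. Over the whole assembly the set made up 0.064% of the transcripts. The ratio of the largest to the smallest FPKM of a transcript is called its spread below. Because the set was chosen on these FPKM values, its high and even levels describe the choice and carry no test.

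*A. japonicum* is a perennial medicinal plant that stores toxic diterpene alkaloids in its tubers. Below ground, the plant bears a mature tuber, called the mother root, a younger tuber formed beside it, called the daughter root, and slender rootlets. The 4 libraries came from plants kept in a greenhouse, with 1 library per tissue made from a single biological replicate, and no treatment or genotype set the tissues apart. Differences between tissues therefore have no replicate check.

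Every living plant cell packs its DNA, makes and folds proteins, breaks them down and moves them between compartments, and the genes behind these tasks are called housekeeping genes. Members of such families, among them actins, tubulins, ubiquitins and translation factors, are commonly used as reference genes, against which the expression of other genes is scaled when tissues are compared by quantitative PCR. A reference gene needs to be well expressed and to differ little among the samples compared, and whether a given family member does so depends on the species and the organ.

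The fragments assigned to transcripts numbered 4516426 in the leaf library and 4492151 in that of the rootlet. They numbered 11801534 in mother root and 12792781 in daughter root, 2.63 and 2.85 times the rootlet total. Shares of fragments given below are shares of these totals. Leaf identity was checked on 13 transcripts whose descriptions named chlorophyll-binding proteins, photosystem subunits or enzymes around ribulose bisphosphate carboxylase. Of these, 11 were highest in the leaf, and 12 of the 13 were above 0 FPKM there. Over all 13, the highest FPKM was 129.75 in the leaf, 0.79 in the mother root, 0.73 in the daughter root and 6.46 in the rootlet. The check is partly circular, since 10 of the 13 stood in lists that the study had chosen for presence in a single tissue of these libraries. Of the other 3, 2 were highest in the leaf, among them a photosystem II cytochrome b559 subunit with 23.67 FPKM there. Since each library came from a whole organ, fewer cells of a type and less RNA per cell cannot be told apart in any value given here.

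The 83 constant transcripts ranged in mean FPKM over the 4 libraries between 53.99 and 1252, with a median of 90.5, against a median of 170 among the other 1505 abundant transcripts. Their median FPKM was 89.3 in the leaf, 93.9 in the mother root, 94.1 in the daughter root and 86.7 in the rootlet. Together they took 0.858% of the fragments in the leaf, 0.899% in the mother root, 0.879% in the daughter root and 0.857% in the rootlet. The other abundant transcripts took between 22.9% of the fragments, in the leaf, and 37.3%, in the mother root. The bulk of the abundant RNA thus lay in transcripts that were not constant, and its share differed among the tissues while that of the constant set was nearly level by construction.

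**Figure D1:**
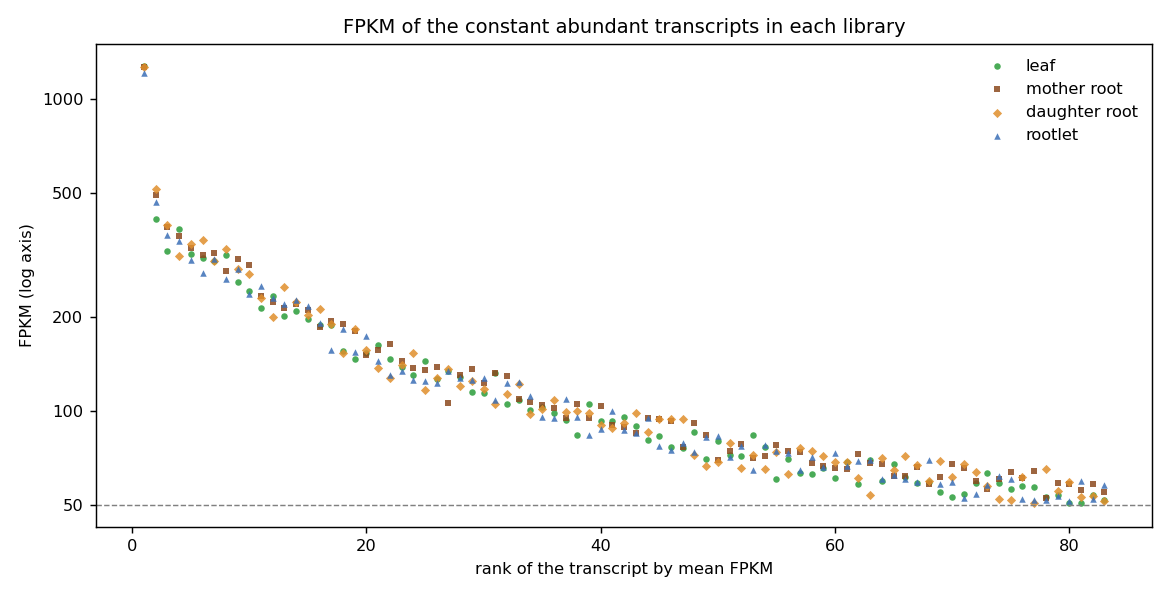
FPKM of each of the 83 constant transcripts (log axis) in the libraries of leaf and the 3 kinds of root, ordered by mean FPKM, with the floor of 50 FPKM as a dashed line. The symbols of the 4 libraries lie close together for each transcript because of the choice, and a single transcript stands at 1252 FPKM while the next lies at 471.

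Within the set, 12 transcripts had a spread of at most 1.1, 36 lay between 1.1 and 1.2, and 35 between 1.2 and 1.3. The median spread was 1.19, against 2.56 for the other abundant transcripts. Spread had no gap at 1.3, since 138 further transcripts lay between 1.3 and 1.5 and 339 between 1.5 and 2. Another 779 lay between 2 and 5, and 83 differed by more than 10-fold. Transcripts just inside the ceiling were TR39572|c2_g1_i1, TR54376|c0_g2_i2 and TR38418|c1_g1_i3, with spreads of 1.290, 1.292 and 1.294, beside TR53395|c5_g3_i6 and TR48615|c2_g1_i2 with 1.283 and 1.284. Just outside it were TR48114|c1_g2_i7 at 1.3004, TR38947|c2_g1_i1 at 1.3007, TR43992|c0_g1_i1 at 1.302, TR51687|c4_g1_i1 at 1.302 and TR38735|c0_g1_i1 at 1.305. At the floor, TR52003|c1_g1_i3, TR50848|c0_g1_i1 and TR48367|c1_g1_i4 were just inside with smallest FPKM of 50.74, 50.75 and 50.85. On the other side, TR36754|c0_g1_i1, TR45048|c5_g2_i1 and TR45651|c1_g1_i1 had spreads under 1.3 but smallest FPKM of 49.81, 49.68 and 49.40. The edge of the set is therefore a line drawn through a continuous range of values.

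The share of constant transcripts was 14.2% (47 of 331) among abundant transcripts with a mean below 100 FPKM, 3.43% (21 of 613) between 100 and 200, 2.91% (14 of 481) between 200 and 500, and 0.613% (1 of 163) at 500 or above. A floor of 50 FPKM in all libraries and a mean under 100 limit how large a spread can be, and the part of this limit in the first step was not tested. Even there the median spread was 1.66, above the ceiling, and it was 6.34 at 500 FPKM or above. Constant transcripts were a minority in every step and rarest at 500 FPKM or above.

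**Figure D2:**
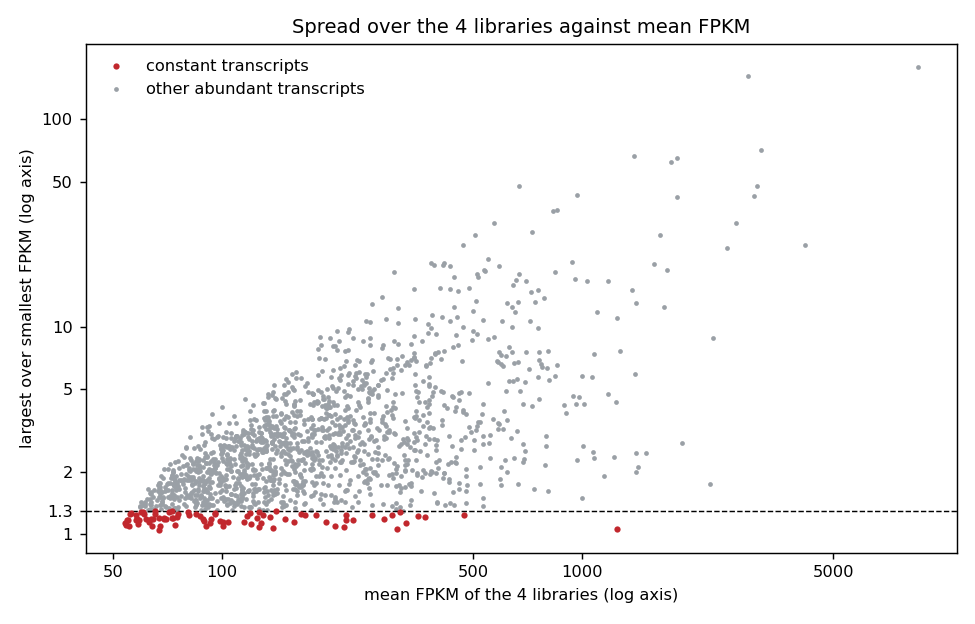
Spread over the 4 libraries (largest over smallest FPKM, log axis) against mean FPKM (log axis) for the 83 constant and the other 1505 abundant transcripts, with the ceiling of 1.3 as a dashed line. The left edge of the cloud is set by the floor of 50 FPKM, and a single constant transcript lies beyond 500 FPKM.

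That transcript, TR39213|c1_g1_i1, stood apart from the rest of the set. It is 1017 bases long and had an FPKM of 1273 in the leaf, 1264 in the mother root, 1267 in the daughter root and 1204 in the rootlet. Its fragments numbered 4994 in the leaf, 12969 in the mother root, 14101 in the daughter root and 4699 in the rootlet, and it alone held 12.4% of all fragments of the set. The exact 95% Poisson limits on its FPKM were 1238 to 1309 in the leaf and 1170 to 1239 in the rootlet, so the limits of its highest and its lowest library just overlapped. Its spread was 1.06, and the 95% limits on the ratio of leaf to rootlet, 1.02 to 1.1, excluded 1. With this many fragments, the interval excluded 1 for a difference of a few percent in FPKM, although it was far inside the ceiling. The direction of this difference hung on the unit. By TPM, a rescaling described below, leaf was the lowest library with 861, against 919 in the rootlet. All intervals in this text are exact (Poisson for a level, Clopper-Pearson for the ratio of a pair of libraries) and refer to FPKM. They cover counting error only, not the choice of scale or variation between plants or preparations. No description of this transcript was among those used here, so its product is not named.

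The next most abundant members were near 500 to 250 FPKM. TR53395|c5_g1_i1 had 413 FPKM in the leaf, 492 in the mother root, 513 in the daughter root and 466 in the rootlet. TR42855|c0_g2_i1 followed a similar order, with 326 in the leaf, 388 in the mother root, 393 in the daughter root and 366 in the rootlet. In both, leaf was lowest and the rootlet lay between leaf and the tuberous roots. TR32611|c1_g1_i1 was instead highest in the leaf, with 381 FPKM there, 362 in the mother root, 313 in the daughter root and 351 in the rootlet. TR31854|c0_g1_i1 reached 315 in the leaf, 281 in the mother root, 329 in the daughter root and 265 in the rootlet. No common order of the tissues ran through these members.

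A further group lay near 300 FPKM. TR45889|c2_g1_i1 had 318 FPKM in the leaf, 333 in the mother root, 343 in the daughter root and 304 in the rootlet. TR45889|c3_g1_i1, from the same group of reads in the assembly, had 259, 306, 284 and 285 in the same order of tissues. Trinity gives the same first number to transcripts built from a shared cluster of reads, so these are not independent examples. TR49337|c2_g2_i3 had 308 in the leaf, 315 in the mother root, 352 in the daughter root and 276 in the rootlet, and TR38501|c1_g1_i2 had 243, 293, 274 and 237. TR45889|c2_g1_i1, TR49337|c2_g2_i3 and TR38501|c1_g1_i2 were lowest in the rootlet. Their ratios of highest to lowest library had 95% limits of 0.982 to 1.297, 1.19 to 1.37 and 1.15 to 1.34. The limits of TR49337|c2_g2_i3 and TR38501|c1_g1_i2 thus excluded 1, and those of TR45889|c2_g1_i1 did not.

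The 5 members with the smallest spread were TR76038|c0_g1_i1 (1.05), TR39213|c1_g1_i1 (1.06), TR41859|c1_g1_i1 (1.06), TR22163|c0_g1_i1 (1.07) and TR41859|c1_g1_i2 (1.08). TR76038|c0_g1_i1 measured 68.35 FPKM in the leaf, 65.07 in the mother root, 68.45 in the daughter root and 66.48 in the rootlet. It is only 252 bases long, however, and these levels rested on 32, 80, 92 and 31 fragments. Its ratio of daughter root, the highest library, to mother root, the lowest, therefore had 95% limits of 0.771 to 1.44. TR22163|c0_g1_i1, with 264 bases and 138, 144, 140 and 135 FPKM, rested on 72, 198, 210 and 70 fragments, and its widest ratio had limits of 0.813 to 1.43. The evenness of these short transcripts was thus not resolved at this depth.

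The TR41859 pair was measured far better. TR41859|c1_g1_i1, of 745 bases, had 301 FPKM in the leaf, 319 in the mother root, 301 in the daughter root and 306 in the rootlet, from 812 to 2305 fragments. TR41859|c1_g1_i2, of 764 bases, had 209, 219, 224 and 226 from 581 to 1765 fragments. Both carry the name of a single Trinity gene, which is a group of assembled transcripts taken as variants of 1 locus, and reads that fit both could have been split between them. Their sum depends on that split only through their slightly different lengths. It was 510 FPKM in the leaf, 539 in the mother root, 525 in the daughter root and 532 in the rootlet, a spread of 1.06. For each of the pair, the intervals of all 6 ratios between libraries held 1 and lay within 1.3 in either direction.

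How far the data could tell each member from exact evenness was examined over the 6 pairs of libraries. The intervals of all 6 ratios held 1 for 29 members and for 8 of the other 1505 abundant transcripts. Together these were 37, or 2.33% of all abundant transcripts. The intervals rest on the counts behind the FPKM that chose the members, so the higher share among members follows from the choice. In 14 of the 29, the smallest library held under 100 fragments, and these 14, none longer than 433 bases, were the whole of the members with so few. The remaining 15 had at least 100 fragments in every library. For the other 54 members at least 1 of the 6 intervals excluded 1. In the widest pair of each transcript, the interval excluded 1 for 52 members and held it for 31. The intervals were not corrected for the 6 pairs, and the widest pair was picked by its values. Either count can therefore include even transcripts, and neither was tested.

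The stricter reading asks whether the intervals of all 6 ratios stayed within 1.3 in either direction. That was the case for 20 members, or 1.26% of the abundant transcripts, and for none of the others. The shortest of the 20 was TR45889|c2_g1_i1 with 345 bases, and their smallest count in a library was 198 fragments. None of the 14 members with under 100 fragments was among them. Both statements reuse the FPKM that chose the members and so describe precision, not a separate finding. For the other 63 members at least 1 interval reached beyond 1.3.

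**Figure D3:**
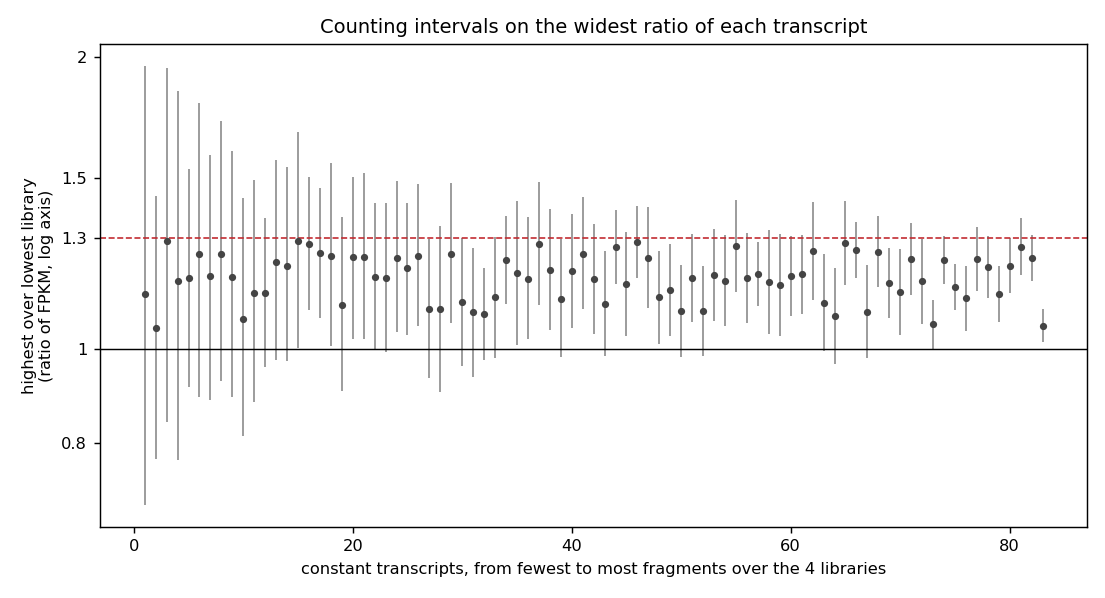
Ratio of the highest to the lowest library (FPKM, log axis) for each of the 83 constant transcripts, with its exact 95% interval as a line, ordered from the fewest to the most fragments over the 4 libraries. Intervals of the transcripts with few fragments reach 1.96, while that of the transcript with the most runs from 1.02 to 1.1.

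The 5 members with the most fragments show what was resolved at greater depth. Beside TR39213|c1_g1_i1 these were TR52198|c2_g2_i1, TR49337|c2_g2_i3, TR32611|c1_g1_i1 and TR40862|c0_g1_i1, and they were the members with at least 1000 fragments in every library. TR52198|c2_g2_i1, of 2581 bases, had 188 FPKM in the leaf, 195 in the mother root, 190 in the daughter root and 157 in the rootlet. Rootlet stood below the other libraries there, with a ratio of mother root to rootlet of 1.24 (95% limits 1.18 to 1.31). TR40862|c0_g1_i1, of 2667 bases, had 101 in the leaf, 107 in the mother root, 97.84 in the daughter root and 112 in the rootlet, and its ratio of rootlet to daughter root was 1.14 (1.07 to 1.22). In TR32611|c1_g1_i1 the ratio of leaf to daughter root was 1.22 (1.14 to 1.3). In all 5 the interval of the widest ratio excluded 1, and in TR39213|c1_g1_i1 and TR40862|c0_g1_i1 all 6 intervals lay within 1.3.

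Among the members, leaf FPKM lay below the mean of the 3 root libraries in 59 of 83 (71.1%), against 77.1% of all abundant transcripts. The median ratio of leaf to that mean was 0.961 in the set and 0.602 among the other abundant transcripts. Small as it was, the offset of the set thus leaned the same way as that of abundant transcripts at large. The highest library was leaf in 11 members, mother root in 26, daughter root in 29 and rootlet in 17. The lowest was leaf in 28, mother root in 8, daughter root in 22 and rootlet in 25, so that mother root was rarely the lowest by FPKM. This order hung on the scaling, because mother root was the lowest in 45 members after the median-of-ratios scaling described below and leaf was the lowest in 68 by TPM.

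Over pairs of tissues, the median ratio was 0.946 for leaf over mother root, 0.960 for leaf over daughter root and 0.988 for leaf over rootlet. It was 1.01 for mother root over daughter root, 1.05 for mother root over rootlet and 1.03 for daughter root over rootlet. The largest such offset, that of leaf over mother root, had leaf lower in 60 of the 83 members. The interval held 1 in 66 members for leaf over mother root and for leaf over rootlet, in 64 for mother root over rootlet, in 54 for leaf over daughter root, in 53 for daughter root over rootlet and in 50 for mother root over daughter root. That last pair joins the deepest libraries.

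The rule was then applied to TPM, which rescales FPKM so that the transcripts of every library sum to the same total. The FPKM of the leaf library summed to more than those of the roots, and TPM was 0.676 times FPKM in the leaf, against 0.783 in the mother root, 0.768 in the daughter root and 0.763 in the rootlet. The step lowered leaf against mother root by 0.21 on the log2 scale, against daughter root by 0.18 and against rootlet by 0.17. By TPM, 48 of the 83 members (57.8%) still had a spread of at most 1.3, and 35 went past it. Another 17 abundant transcripts came in, for 65 in all, or 4.09% of the 1588. Membership of the set thus depended on the unit for 35 of its 83 transcripts.

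The members that went past the ceiling by TPM were low in the leaf. This was largely set by the rescaling, which lowered every leaf value against the roots. Of the 35 members that went past 1.3 by TPM, 34 were lowest in the leaf by TPM, and 33 had been below the mean of the roots in FPKM, against 26 of the 48 that stayed. Their median ratio of leaf to the root mean in FPKM was 0.888, against 0.996 in those that stayed. The largest spread by TPM was that of TR48615|c2_g1_i2, of 2047 bases, at 1.49. Its FPKM was 60.41 in the leaf, 77.59 in the mother root, 73.65 in the daughter root and 74.57 in the rootlet, and its TPM 40.86, 60.75, 56.58 and 56.93. Leaf was alone at the low end on both scales, and the roots lay close together.

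The next largest by TPM were TR49531|c2_g1_i3 (1.48), TR13470|c0_g1_i1 (1.45), TR41508|c0_g1_i2 (1.44) and TR28135|c0_g1_i1 (1.43). In FPKM these had spreads of 1.28, 1.25, 1.25 and 1.25. Leaf was the lowest library of each of them on both scales. The opposite case was TR39751|c1_g1_i2, singled out after the values were seen, whose spread was 1.12 in FPKM and 1.03 in TPM. Its FPKM was 63.04 in the leaf, 56.32 in the mother root, 57.30 in the daughter root and 57.72 in the rootlet, and its TPM was 42.64, 44.09, 44.03 and 44.07. It was highest in the leaf by FPKM and level on all 4 libraries by TPM. TR38418|c1_g1_i3, the member at the very edge by FPKM, likewise had 83.86 in the leaf and 64.83 in the rootlet but a spread of only 1.15 by TPM.

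**Figure D4:**
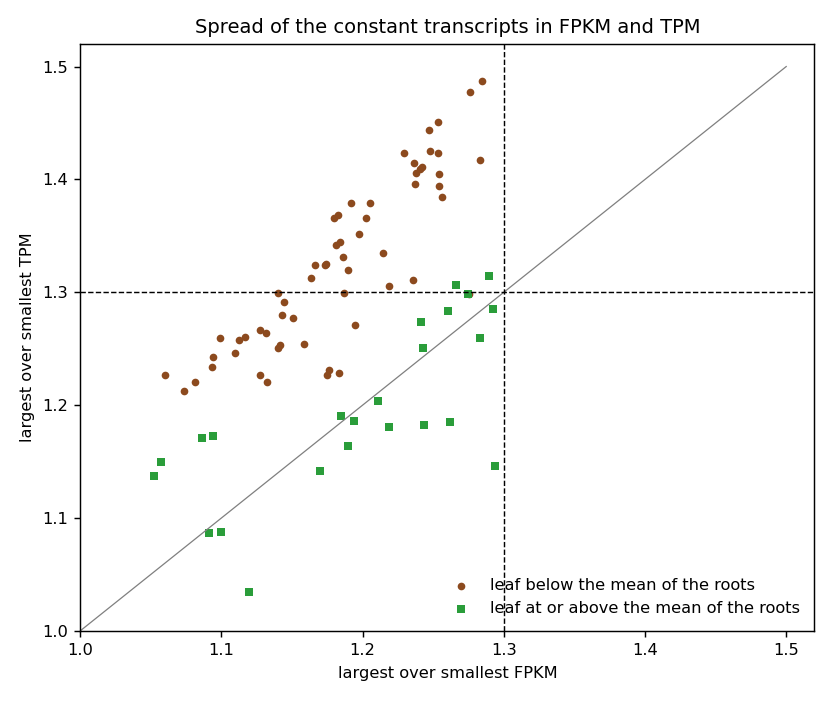
Spread of each of the 83 constant transcripts by FPKM and by TPM, with the ceiling of 1.3 dashed on both axes, the line of equal spread in grey, and symbols for the leaf below or at and above the mean of the roots. The 35 transcripts above the horizontal line went past the ceiling by TPM, and 33 of them had leaf below the mean of the roots.

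Another scale divided FPKM by median-of-ratios factors, which set the median transcript to the same level in every library. The factors, taken over 35605 transcripts with at least 1 FPKM in all libraries, were 0.985 for the leaf, 1.098 for the mother root, 0.951 for the daughter root and 0.973 for the rootlet. On the log2 scale the step raised leaf against mother root by 0.16, the reverse of the shift under TPM. The shift of leaf was -0.05 against daughter root and -0.02 against rootlet, in the same direction as under TPM but smaller. On this scale 70 of the 83 members kept a spread of at most 1.3, and the abundant transcripts within it numbered 101, or 6.36%. Constant on all 3 scales were 41 members, and 6 were constant by FPKM alone. TR39213|c1_g1_i1 had a spread of 1.06 by FPKM, 1.15 by TPM and 1.16 on the median-of-ratios scale, and TR41859|c1_g1_i1 had 1.06, 1.23 and 1.09. Of the 20 members whose intervals all lay within 1.3, 19 kept a spread of at most 1.3 by TPM. The exception, TR33415|c0_g1_i1, reached 1.33 by TPM, from FPKM of 213 in the leaf, 233 in the mother root, 229 in the daughter root and 250.31 in the rootlet.

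Length was not part of the rule. The members were 227 to 2670 bases long, with a median of 941, against a median of 738 among the other abundant transcripts. At most 500 bases long were 22 members (26.5%), against 510 of the others (33.9%), and longer than 1000 bases were 37 members (44.6%), against 540 (35.9%). The members were thus somewhat longer in the middle of the range, although none was as long as the longest other abundant transcript, of 6469 bases. Short transcripts carry fewer fragments at a given FPKM and so scatter more from counting alone, and its part in this difference was not tested.

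The names of the transcripts also tell how the assembler grouped them. The 83 members came from 81 Trinity genes and 74 groups of reads. For 55 members (66.3%) the gene had no other transcript in the assembly, against 985 (65.4%) of the other abundant transcripts, so single-transcript genes were about as common in both. Pairs of members shared a gene in TR41859|c1_g1 and in TR44787|c0_g1. In TR44787|c0_g1, the transcript TR44787|c0_g1_i3 had 62.76 FPKM in the leaf, 67.98 in the mother root, 74.29 in the daughter root and 71.23 in the rootlet, and TR44787|c0_g1_i4 had 65.52, 66.64, 71.69 and 66.29. Leaf was lowest and daughter root highest in both, and their sum had a spread of 1.14.

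For 24 member genes another transcript of the gene reached at least 5 FPKM in some library, and there evenness of the member need not be evenness of the gene. Such other transcripts numbered 42, with a median spread of 1.503. Of these, 5 lay within 1.3, 14 differed by more than 2-fold, and 1 was listed at 0 in a library. Summed over all transcripts, 16 of the 24 genes had a spread of at most 1.3 and 8 were above it. Over the 26 member genes with several transcripts, the members held a median of 52.3% of the FPKM of the gene.

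The widest sum was that of TR45628|c1_g1, with 224 FPKM in the leaf, 373 in the mother root, 349 in the daughter root and 325 in the rootlet, a spread of 1.66. Its member TR45628|c1_g1_i5 had 63.10 in the leaf, 73.88 in the mother root, 75.85 in the daughter root and 64.57 in the rootlet, while its neighbour TR45628|c1_g1_i3 had 43.23 in the leaf and 101 in the mother root. Leaf was low in the gene as a whole, and the even member held only 21.8% of it. In TR49337|c2_g1 the member TR49337|c2_g1_i4 held 15.4%, the lowest share, with 58.89 in the leaf, 66.12 in the mother root, 67.15 in the daughter root and 59.10 in the rootlet. The gene summed to 461 in the leaf, 416 in the mother root, 454 in the daughter root and 302 in the rootlet, a spread of 1.53 with rootlet lowest.

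Next came TR54376|c0_g2 with a spread of 1.519 and daughter root lowest, TR48898|c1_g1 with 1.44 and TR38418|c1_g1 with 1.41. In TR48898|c1_g1, the member TR48898|c1_g1_i1 had 155 FPKM in the leaf, 189 in the mother root, 153 in the daughter root and 183 in the rootlet. The other transcript, TR48898|c1_g1_i3, had 80.32, 115, 105 and 156 in the same order, so that the gene was lowest in the leaf and highest in the rootlet. In the opposite direction, TR49337|c2_g2 was more even as a gene, at 1.17, than its member TR49337|c2_g2_i3, at 1.28, as was TR53395|c5_g1, at 1.18, than TR53395|c5_g1_i1, at 1.24. Reads that fit several variants may be divided among them differently in each library, and its part in these sums was not tested.

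Descriptions of transcripts came from the tables of the study, which were used in part here and cover transcripts by their running number rather than by level. They described 2 of the 83 members, and 81 have no description here. TR15402|c0_g1_i1 is described as histone H2A, one of the core histones around which DNA is wound. It had 145 FPKM in the leaf, 135 in the mother root, 116 in the daughter root and 124 in the rootlet, from 158, 386, 362 and 135 fragments. Leaf was highest and daughter root lowest, with a ratio of 1.24 (95% limits 1.02 to 1.503), and its spread was 1.18 by TPM and 1.201 on the median-of-ratios scale. It was thus constant on every scale, although the upper limit of its widest ratio was above 1.3.

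The other described member, TR13470|c0_g1_i1, is listed as an acyl- oxidase, a name that fits acyl-CoA oxidases, which carry out the first step of fatty acid beta-oxidation in peroxisomes. It is 267 bases long and had 84.00 FPKM in the leaf, 105 in the mother root, 99.65 in the daughter root and 95.59 in the rootlet. These levels rested on 45, 148, 153 and 51 fragments, and the limits on its widest ratio, 1.25 for mother root over leaf, were 0.892 to 1.79. By TPM its spread was 1.45. The other abundant transcripts with this kind of description were less even, with a spread of 1.92 for TR18644|c0_g1_i1 and 3.23 for TR17482|c0_g1_i1. In those a root library was highest, as it was in TR13470|c0_g1_i1.

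In all, 39 abundant transcripts were described, and 2 of them, or 5.13%, were members, close to the 5.23% over all abundant transcripts. Their median spread was 2.23, against 2.47 over all 1588 abundant transcripts. Words that mark housekeeping genes stood in the description of 15, of which histone H2A alone was a member (6.67%), and the median spread of these 15 was 2.23 too. Among these 15, the closest to the set was TR17451|c0_g1_i1, described as an ADP-ribosylation factor, a small GTPase of vesicle traffic, with a spread of 1.35. A 14-3-3 protein, a peptidylprolyl isomerase and histone H3 had spreads of 1.63, 1.72 and 1.97.

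Polyubiquitin, the precursor of the tag that marks proteins for breakdown, had spreads of 1.91 in TR16121|c0_g1_i1 and 3.19 in TR1630|c0_g1_i1, and a ubiquitin-conjugating enzyme had 1.95. Both transcripts of translation initiation factor 5A were at 2.23, and the ribosomal proteins S4, L34 and S9 were at 2.61, 3.05 and 3.37. These 3 were lowest in the leaf and highest in the mother root, where the member histone H2A was instead highest in the leaf. Calmodulin reached 3.54, a heat shock 70 protein 7.32 and translationally controlled tumor proteins 9.87 and 10.8. None of the abundant transcripts described here was named an actin, a tubulin, an elongation factor or glyceraldehyde phosphate dehydrogenase, so the most widely used reference genes could not be placed. The 35 described transcripts outside the pathway list were short, with a median of 288 bases, and their levels carry the counting error of short transcripts.

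**Figure D5:**
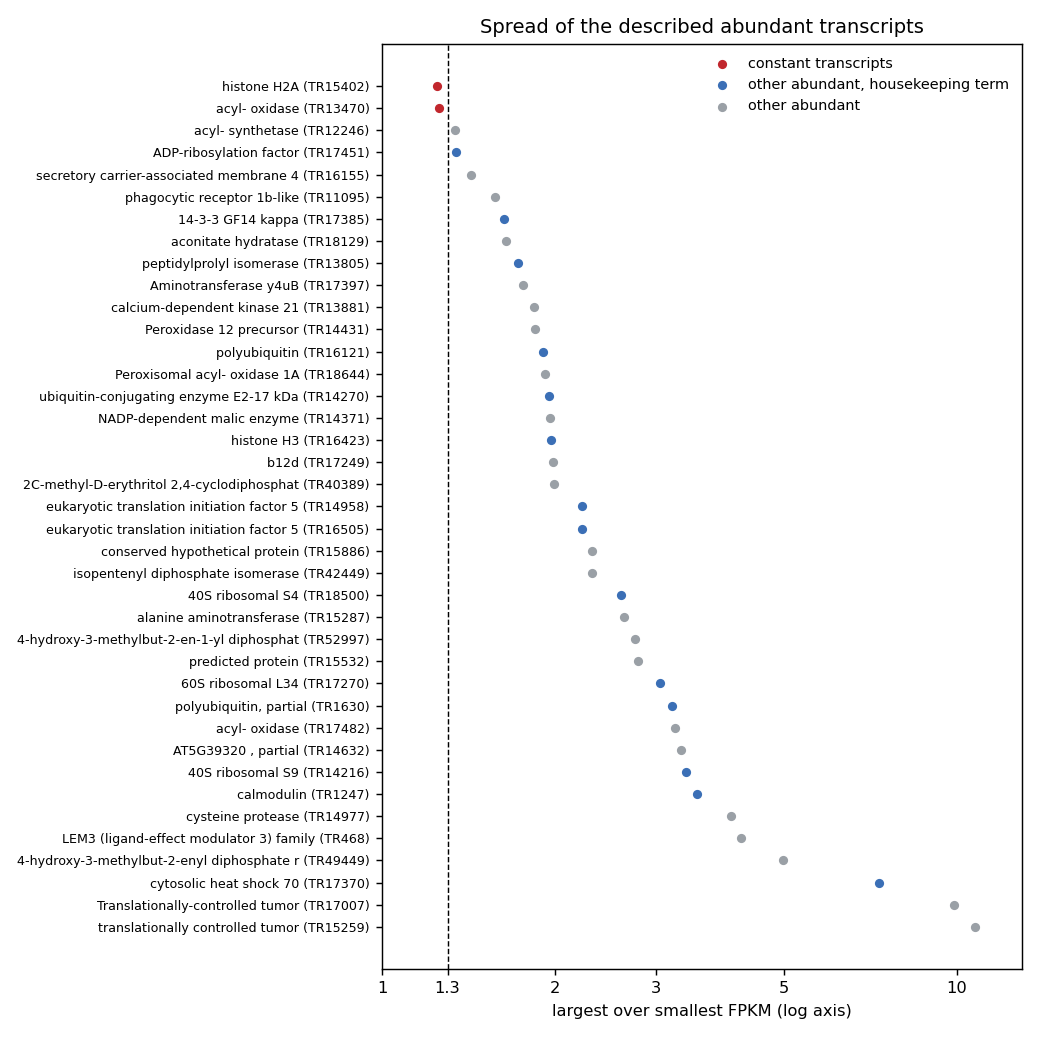
Spread over the 4 libraries (largest over smallest FPKM, log axis) of the 39 abundant transcripts with a description, with the 2 constant ones at the top, the other housekeeping terms in blue and the remaining transcripts in grey. The dashed line is the ceiling of 1.3, and the values run up to 10.8.

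Among 50 transcripts that the study assigned to the mevalonate pathway, the methylerythritol phosphate pathway and the steps toward the diterpene core, 4 were abundant in all libraries and none was a member. With 5.23% of the abundant transcripts constant, a count of none among 4 says nothing about these enzymes. The 4 were ISPF, ISPG, ISPH and IPPI of the plastid pathway and its isomerase, with spreads of 1.99, 2.76, 4.98 and 2.32, each highest in the leaf. With no floor, 1117 of the 55560 transcripts above 0 FPKM in every library had a spread within 1.3. Among the 50, 1 did, a count that does not set these enzymes apart, and it lay under the floor. This was TR49281|c2_g1_i2, assigned to acetoacetyl-CoA thiolase (AACT), the entry enzyme of the mevalonate pathway, with 26.96 FPKM in the leaf, 21.66 in the mother root, 27.38 in the daughter root and 21.14 in the rootlet. None of the 17 cytochrome P450 transcripts listed by the study was abundant in all libraries, and their lowest spread was 3.13. The paper chose these 17 for their correlation with the diterpene alkaloid cluster and reports all of them as highest in the mother root. Their uneven levels thus follow from that choice. With 1588 of 129760 transcripts abundant in all libraries, a count of none among 17 says nothing about these enzymes.

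Orthogroups, the sets of genes that descend from 1 ancestral gene, had been built by the study from *A. japonicum* and its relatives *A. carmichaelii* and *A. heterophyllum*. In the portion of these assignments used here, 14 members had an entry. Of these, 10 belonged to orthogroups with a single copy in each of the 3 species, which was 12.05% of the members, against 6.11% (92) of the other abundant transcripts. Among them were TR50848|c0_g1_i1, TR43445|c0_g1_i2, TR35373|c0_g1_i1 and TR48615|c2_g1_i2. A further 2, TR41859|c1_g1_i1 and TR52003|c1_g1_i3, stood in the listing of orthogroups of *A. japonicum*, and 2 more, TR38501|c1_g1_i2 and TR22608|c0_g1_i1, in that of orthogroups of toxic *Aconitum* species. The listing of *A. japonicum* held 2.41% of the members, against 4.45% of the other abundant transcripts, and that of the toxic species held 2.41%, against 0.399%. Because the assignments were used only in part, these shares are counts of what was seen and were not tested.

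TR35373|c0_g1_i1, of 1271 bases, is an example of a single-copy member that was also well measured. It had 114 FPKM in the leaf, 123 in the mother root, 117 in the daughter root and 127 in the rootlet, from 578 to 1688 fragments. All 6 of its intervals held 1 and lay within 1.3, and its spread was 1.12 by FPKM, 1.26 by TPM and 1.17 on the median-of-ratios scale. TR41045|c0_g1_i1, of 1191 bases, was as even, with 103 in the leaf, 104 in the mother root, 101 in the daughter root and 95.43 in the rootlet and spreads of 1.09, 1.17 and 1.12. TR35785|c0_g1_i1, of 580 bases, had 129, 130.22, 119.88 and 128, and its spreads were 1.09, 1.17 and 1.11. These 2 transcripts, named after their values were seen, have neither a description nor an orthogroup here.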

How the data were processed

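A single RNA library was sequenced for each of the 4 tissues. The authors trimmed the reads (Trimmomatic), assembled them de novo over all tissues (Trinity), collapsed redundant sequences (CD-HIT-EST), mapped each library back (Bowtie 2) and quantified it (RSEM). The tables deposited by the authors give, per transcript, expected counts of fragments (all whole numbers), FPKM and TPM. The percent of a gene held by each transcript (IsoPct), also deposited, was always 0 or 100 and was not used. Genes were taken from the Trinity names instead.

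The tables were joined on the transcript name. Limits on levels are exact Poisson limits at 95% on the expected counts, and those on ratios of libraries are conditional Clopper-Pearson limits scaled to FPKM. No test between tissues was made. Python 3.11.15, numpy 2.4.6, pandas 2.3.3, scipy 1.17.1 and matplotlib 3.10.9 were used.

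Alternatives were TPM, median-of-ratios factors, sums per Trinity gene, other floors and ceilings, a pseudocount of 1, minimum fragment counts and leaving out each library. A minimum of 1000 fragments was added after the data were seen. The set, the lists and the words for housekeeping genes were chosen with earlier results of these data known.

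The rule for named transcripts took the described members, the 10 of highest mean, the 5 of smallest spread, the 5 of largest TPM spread, the 5 with most fragments, those at the edges of the rule, the 5 widest gene sums, and the described or pathway transcripts that were abundant. Transcripts named otherwise illustrate a count and were chosen after their values were seen. Sequences of the transcripts were not used here.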

Additional observations from a re-analysis of the deposited data

How the results depend on the processing

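The size of the set moved with every ceiling and floor tried. From 83 of 1588 abundant transcripts it became 48 at a ceiling of 1.2 and 221 at 1.5. The floor changed the pool as well as the count. Constant transcripts numbered 255 of 4595 at a floor of 20 FPKM, 33 of 605 at 100 FPKM and 1117 of 55560 with no floor. TPM for floor and ceiling gave 45, of which 32 were members, and 5 held at least 1000 fragments in every library. Without leaf the rule gave 495 of 2587 abundant transcripts, without mother root 155 of 1620, without daughter root 214 of 1777 and without rootlet 230 of 1732. Leaving out a library removes conditions and can only add transcripts, so a rise in these counts was fixed in advance. The constant share was 4.09% of abundant transcripts by TPM, against 5.23%, and the median ratio of leaf to the root mean was 0.842 by TPM and 0.977 with median-of-ratios factors, against 0.961. Counts with those factors (103), gene sums (104), TPM for the ceiling alone (65), a pseudocount of 1 (87) or at least 100 fragments (69) stayed within 1.5 times. Of the 76 named transcripts, 15 crossed the ceiling of 1.3 by TPM and 10 with the factors. The named transcripts include the 5 members of largest TPM spread and those at the edge of the ceiling, so these counts partly follow from the choice. No paired analysis was possible because each tissue had 1 library and the labels carry no replicate numbers. None of the 14 members with under 100 fragments in a library, all of 433 bases or less, had every interval within 1.3.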
